A study of Mus musculus with 8 samples.

Results

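The 4 libraries grown with DS3201, an inhibitor of the H3K27 methyltransferases EZH1 and EZH2, were compared with the 4 grown without it, across both shRNAs. All 8 libraries of the series entered. The cells were 6KO iMEFs, immortalized mouse embryonic fibroblasts that all groups share and whose labels list knockouts of Setdb1, of Suv39h1 with Suv39h2, of Ehmt1 with Ehmt2 and of Ring1b (Rnf2). The first 5 genes encode enzymes that methylate lysine 9 of histone H3, and Ring1b is a ubiquitin ligase of Polycomb repressive complex 1 (PRC1). The control group carried a control shRNA, and in the knockdown group the shRNA targeted the other PRC1 ligase, Ring1a (Ring1). The inhibitor group carried the control shRNA and received DS3201 at 1 uM for 7 days. The combined group carried the Ring1a shRNA and received the same DS3201 treatment. The shRNA came by lentivirus at a multiplicity of infection of 2, with selection in 7 ug/ml blasticidin for 3 days. Each group had 2 libraries, 1 in each of 2 sets named 20 and 28 after the number that opens the column name. The labels do not say whether the line is 1 clone, whether the libraries came from separate cultures or what the sets are. The p-values therefore reflect the scatter among these libraries alone, and that scatter may be technical. Poly(A) RNA libraries held 12738585 to 23688253 counts.

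PRC2, the complex of EZH1 or EZH2 with EED and SUZ12, methylates lysine 27 of histone H3, and PRC1 ubiquitinates histone H2A. Both marks are known for keeping developmental genes silent. Genes silenced by these marks can rise when the marks are lost. The genes described here were instead already expressed without DS3201, and above all those that fell with it. A gene counted as expressed when its mean level over the 4 libraries without DS3201 was at least 5 CPM (counts scaled to library size after TMM normalization), and 10371 of 14393 genes tested did. Just outside that limit lay Has2 and Pddc1 (4.99 and 5.00 CPM), and just inside it Ptpn3 and Zbtb7c (both 5.00 CPM). Log2 fold changes are with DS3201 relative to without it, with the standard error (SE) of the fit, and adjusted p values are from edgeR's quasi-likelihood test. Library values are given in the order set 20 with control shRNA, set 20 with Ring1a shRNA, set 28 with control shRNA and set 28 with Ring1a shRNA.

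Over the expressed genes as a whole, 2 libraries of set 28 stood apart. In the inhibitor library of set 28, the difference from its control fell with the GC content of the transcript. The median log2 CPM difference of that pair was 0.44 over the fifth of expressed genes with the lowest GC content (31.5 to 44.0%) and -0.74 over the fifth with the highest (55.7 to 71.3%). In the other 3 pairs the same medians lay between -0.08 and -0.01. In the combined library of set 28, genes of chromosomes 3 and X lay lower as a whole, at medians of -0.31 and -0.29 against its knockdown partner. Of the 10371 expressed genes, 9702 (93.5%) had a transcript to measure. Total counts and list counts are therefore also given without the inhibitor library of set 28 and with each library's values corrected for GC content, both chosen after the data were seen for the gene lists.

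**Figure D1:**
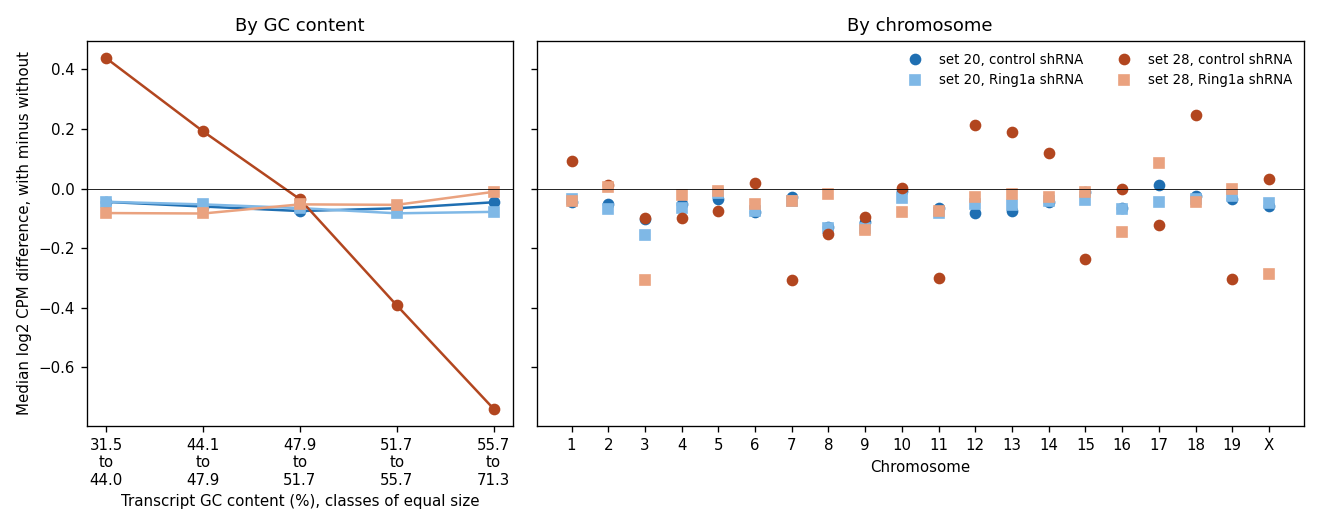
Median log2 CPM difference (with minus without DS3201) in each of the 4 pairs of libraries of the same set and shRNA, over expressed genes in 5 classes of transcript GC content (left) and by chromosome (right). The set 28 control shRNA pair runs from 0.44 to -0.74 over the GC classes, and the set 28 Ring1a shRNA pair lies at -0.31 on chromosome 3 and -0.29 on chromosome X.

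DS3201 lowered 792 of the 10371 expressed genes (7.64%) and raised 489 (4.72%). Over all 15287 entries tested, which include repeats and genes under the level limit, 852 (5.57%) were lower and 2212 (14.5%) higher. Among the 4022 tested genes under 5 CPM without DS3201, 58 fell and 1606 rose. The level limit is set on the libraries without DS3201 and so admits genes more readily when they fall. With the limit on the mean of all 8 libraries, 769 genes were lower and 745 higher. With upper quartile scaling the split was 584 lower and 641 higher. The median log2 fold change over all expressed genes was -0.06. Changes below are relative to all counts in a library, and in bulk RNA fewer cells of a type and less RNA per cell cannot be told apart.

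Together the lowered genes took 8.52 to 10.2% of the counts in the libraries without DS3201 and 4.76 to 7.05% in those with it. Their median log2 fold change was -0.61, with a range from -3.23 to -0.31, and 124 of the 792 (15.7%) fell by more than 1 on the log2 scale. Their median level was 53.1 CPM without DS3201 and 34.6 CPM with it. The raised genes had a median change of 0.73 and a median level of 21.1 CPM without DS3201. By level, 155 of 2883 genes of 5 to 20 CPM were lower (5.38%) and 238 higher (8.26%). Of the 5302 genes of 20 to 100 CPM 8.03% were lower and 4.09% higher. Of the 2186 genes of at least 100 CPM, 211 were lower (9.65%) and 34 higher (1.56%). In 785 of the 792 lowered genes all 4 pairs had the same sign, and in 378 every library with DS3201 lay below every library without it, as it did in 736 of all expressed genes.

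The number of calls depended on single libraries. Without the inhibitor library of set 28 the counts were 2062 lower and 878 higher, and 758 of the 792 were again among the lower. That is 19.9% of all expressed genes lower and 8.47% higher, and list counts without that library stand against these shares. The counts were 272 (2.62%) and 194 (1.87%) without the combined library of set 20. They were 320 (3.09%) and 207 (2.00%) without the control library of set 20. Without that of set 28 they were 383 (3.69%) and 261 (2.52%). Without the knockdown library they were 500 (4.82%) and 276 (2.66%) for set 20 and 357 (3.44%) and 232 (2.24%) for set 28. Without the inhibitor library of set 20 they were 703 (6.78%) and 382 (3.68%). Without the combined library of set 28 they were 622 (6.00%) and 466 (4.49%). List counts in these fits stand against these shares. The GC correction gave 1303 lower (12.6%), 728 of them shared with the 792, and 780 higher (7.52%). Without the term for the set, which pairs the libraries, 94 genes were lower and 115 higher.

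With all 8 libraries, collagens and basement membrane genes had the highest share of lowered members among lists with 10 or more expressed members. The interferon-stimulated genes had more lowered members without the inhibitor library of set 20 (30 of 36 against 15 of 34) and without the control library of set 20 (14 of 36 against 10 of 34). Of the 34 expressed members of the collagen list 18 fell (52.9%) and 1 rose. Their median log2 fold change was -0.53, beside -0.06 over all expressed genes. Collagens are the fibrous proteins of connective tissue, and fibroblasts are a main source of them. Col1a1, the major chain of type I collagen (chr11, 94936224 to 94953042), was at 6153, 6954, 5547 and 6013 CPM without DS3201 and 4443, 3744, 3052 and 3904 CPM with it. All 4 libraries with DS3201 were below all 4 without it. The log2 fold change of Col1a1 was -0.70 ± 0.12 (adjusted p = 0.00632). Its partner chain Col1a2 (chr6, 4505618 to 4541543) went from 4809.9 ± 1006 to 2827 ± 801 CPM (SD, n = 4 in each arm), a change of -0.76 ± 0.16 (adjusted p = 0.0123). Col3a1, the chain of type III collagen (chr1, 45311538 to 45349706), was at 2943, 3680.1, 1599 and 2024 CPM without DS3201 and 1754, 1421, 592 and 1082 CPM with it. The arms overlapped, with set 28 lower than set 20 in each arm, and within each set both libraries with DS3201 were lower. Its change was -1.08 ± 0.18 (adjusted p = 0.00430).

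The remaining collagens covered fibril, network and microfibril types. Among the type V chains, which regulate fibril diameter, Col5a1 changed by -0.71 ± 0.21, Col5a2 by -0.66 ± 0.14 and Col5a3 by -1.06 ± 0.23 (adjusted p = 0.0462, adjusted p = 0.0160 and adjusted p = 0.0149). The type IV chains of basement membranes fell too, Col4a1 by -0.68 ± 0.16 as a signed change, Col4a2 by -0.60 ± 0.16 and Col4a5 by -0.79 ± 0.15. Col6a3 of the microfibrillar type VI (chr1, 90766860 to 90844001) was at 649, 478, 323 and 179 CPM without DS3201 and 363, 194, 106 and 60.0 CPM with it, and each library with DS3201 was below its partner of the same set and shRNA. That change was -1.33 ± 0.14 (adjusted p = 0.000676). Col6a1 changed by -1.08 ± 0.16, Col6a2 by -0.55 ± 0.14, Col7a1 of anchoring fibrils by -1.07 ± 0.17, Col12a1 by -0.54 ± 0.11 and Col16a1 by -0.78 ± 0.19. The basement membrane linkers Nid1 and Nid2 changed by -0.56 ± 0.16 and -0.71 ± 0.13. P4ha2, a collagen prolyl hydroxylase, fell (-0.38 ± 0.10), and Plod2, a collagen lysyl hydroxylase, was the member that rose (0.76 ± 0.14, adjusted p = 0.00878). Without the inhibitor library of set 28, 19 members were lower and the list's median was -0.44, and with the GC correction 19 were lower with a median of -0.39. Leaving out 1 of the other libraries gave 9 to 17 lowered members, with 9 without the combined library of set 20 and 10 without the control library of either set. Of all expressed genes 2.62% were lower without that combined library, and 3.09% and 3.69% without the control libraries of sets 20 and 28. The calls of Col4a1, Col5a1 and Col5a2 were each lost in 3 or 4 of the 8 fits without 1 library (adjusted p up to 0.148). Without the set term 2 members were lower.

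**Figure D2:**
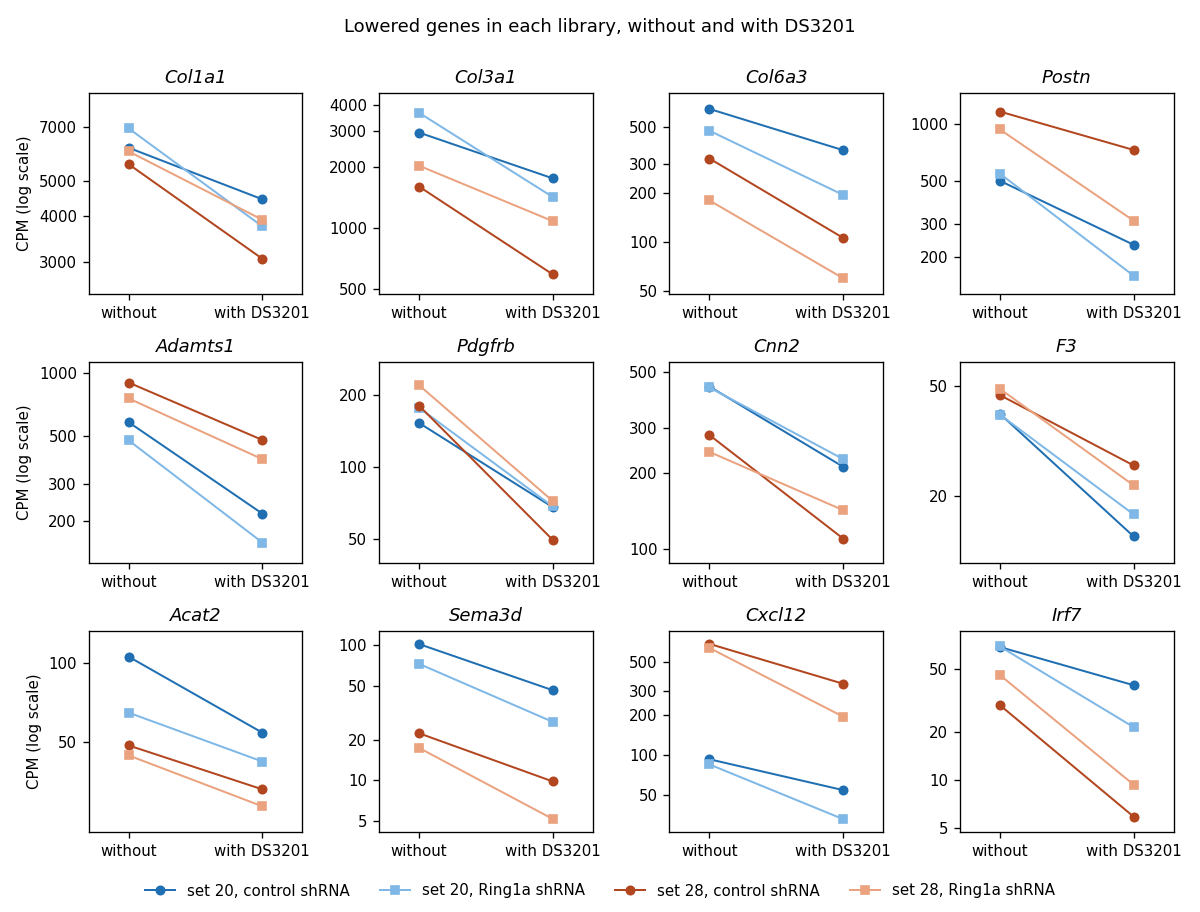
Level in CPM (log scale) of 12 genes called lower, with 1 line for each pair of libraries of the same set and shRNA. Every line goes down, as the rule for naming called genes required. Pdgfrb lies at 153 to 219.6 CPM without DS3201 and at 49.5 to 71.9 CPM with it. Cxcl12 falls within each set although its level differs between the sets.

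Other matrix and fibroblast genes included 9 lowered and 0 raised of 28 expressed members (32.1%, median -0.28). Postn, encoding periostin, a matricellular protein (chr3, 54359267 to 54391041), was at 503, 549, 1161 and 936 CPM without DS3201 and 233, 160.2, 730.3 and 311 CPM with it. Its levels were higher in set 28, and it fell in every pair (-1.28 ± 0.21, adjusted p = 0.00463). Adamts1, a secreted protease of proteoglycans, was at 584, 479, 899 and 756 CPM without DS3201 and 216, 158, 481 and 391 CPM with it. It fell in every pair, with effects of -1.52 in set 20 and -0.93 in set 28 (-1.22 ± 0.14 in all, adjusted p = 0.000916). The membrane collagenase Mmp14 (-0.74 ± 0.14, 612 to 369 CPM), the elastic fibre genes Fbln5 (-0.77 ± 0.13) and Emilin1 (-1.18 ± 0.27), the aggrecanase Adamts5 (-0.45 ± 0.12), Ecm1 (-0.80 ± 0.18) and S100a4 (-0.41 ± 0.10) made up the rest with Pdgfrb. Members under the level limit went the other way. The mean level rose from 0.658 to 32.3 CPM for fibulin 1 (Fbln1), from 0.178 to 7.80 CPM for decorin (Dcn) and from 2.60 to 19.1 CPM for the PDGF receptor Pdgfra. Over all 39 tested members 9 were lower and 10 higher. Without the inhibitor library of set 28, 13 expressed members were lower (46.4%, beside 19.9% over all) and 1 higher. Without the control library or the combined library of set 20, 5 were lower, beside 3.09% and 2.62% over all expressed genes.

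Receptors of growth factors were among the lowered genes. Of 31 expressed growth factors and receptor kinases 9 were lower (29.0%) and 3 higher, with a median of -0.09. Over all 42 tested members, which include those under the level limit, 9 were lower and 12 higher. Pdgfrb, the receptor for PDGF-B that marks fibroblasts and pericytes (chr18, 61045127 to 61085067), was at 153, 177, 180.3 and 219.6 CPM without DS3201 and 67.8, 68.2, 49.5 and 71.9 CPM with it. All libraries with DS3201 were below all without it. It changed by -1.50 ± 0.14 (adjusted p = 0.000323), and its highest adjusted p over the 19 alternatives run for named genes was 0.00412. Fgfr2 was at 36.7, 34.6, 53.3 and 48.4 CPM without DS3201 and 25.0, 23.0, 27.9 and 21.5 CPM with it, again without overlap (-0.81 ± 0.13, adjusted p = 0.00477). Fgfr1 (-0.48 ± 0.13), the collagen receptor Ddr2 (-0.69 ± 0.15), the hepatocyte growth factor receptor Met (-0.51 ± 0.13), the insulin receptor Insr (-0.36 ± 0.10), the GAS6 receptor Axl (-0.58 ± 0.12) and the ligand Vegfc (-0.48 ± 0.13) were also lower. Efnb2, a membrane ligand of Eph receptors, rose in the same cells (16.9, 21.0, 59.1 and 65.5 CPM without DS3201 and 53.1, 67.8, 181 and 135 CPM with it). Its change was 1.51 ± 0.16 (adjusted p = 0.000553), and Ephb2 (0.76 ± 0.14) and the EGF receptor ligand Hbegf (0.47 ± 0.11) were the other raised members. The count of lowered members was 13 (41.9%, beside 19.9% over all) without the inhibitor library of set 28. It was 2 to 5 without the control library of either set, the knockdown library of set 20 or a set 20 library with DS3201. In those fits 2.62 to 6.78% of all expressed genes were lower.

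Integrins and focal adhesion genes, which tie the matrix to actin, had 6 lowered and 0 raised of 24 expressed members (25.0%, median -0.32). These were the tensins Tns1 (-0.58 ± 0.11), Tns2 (-0.78 ± 0.12) and Tns3 (-0.63 ± 0.10), the filamin-binding Fblim1 (-0.55 ± 0.10), Parva, which binds integrin-linked kinase (-0.39 ± 0.09), and the integrin subunit Itgb3 (-0.45 ± 0.13). Tns3 was at 146, 143, 167 and 172 CPM without DS3201 and 97.6, 98, 91.9 and 118 CPM with it, with no overlap between the arms. Among axon guidance genes, many of which also act between mesenchymal cells, 6 of 26 fell (23.1%) and 3 rose, with a median of 0.00. Over all 37 tested members 6 were lower and 12 higher. The secreted semaphorins Sema3d (-1.36 ± 0.13, adjusted p = 0.000346), Sema3f (-0.97 ± 0.20), Sema3b (-0.87 ± 0.25) and Sema3a (-0.80 ± 0.23), the netrin Ntn1 (-0.65 ± 0.14) and the semaphorin receptor Plxnd1 (-0.57 ± 0.15) fell, while Efnb2, Ephb2 and Ephb3 (1.21 ± 0.23) rose. Sema3d was at 102, 72.7, 22.3 and 17.4 CPM without DS3201 and 46.4, 27.1, 9.80 and 5.17 CPM with it. Set 28 was below set 20 in both arms, and it fell in all 4 pairs, whereas Sema3a fell in 3 of 4. Of the axon guidance genes 1 was lower without the combined library of set 20, and 2 without the control library of set 20 or the knockdown library of set 28. Over all expressed genes 2.62, 3.09 and 3.44% were lower in these fits.

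Contractile genes that serum response factor (SRF) controls were lowered in part. SRF binds a DNA motif called the CArG box and is driven by actin assembly, and its targets build stress fibres. Of 39 expressed members 7 fell (17.9%) and 1 rose, with a median of -0.18. Cnn2, an actin-binding calponin (chr10, 79988600 to 79995400), was at 439.6, 436, 283 and 242 CPM without DS3201 and 212, 227, 110.1 and 143 CPM with it, and the arms did not overlap. It changed by -1.03 ± 0.12 (adjusted p = 0.000789). Smooth muscle actin Acta2 was at 978, 1039, 932 and 702 CPM without DS3201 and 484, 639.8, 322 and 440.3 CPM with it, also without overlap (-0.98 ± 0.16, adjusted p = 0.00425). The myosin light chain kinase Mylk changed by -0.87 ± 0.11, the LIM protein Fhl2 by -0.82 ± 0.10, Tagln by -0.69 ± 0.17, Actg2 by -0.64 ± 0.16 and Synpo2 by -1.04 ± 0.19. Csrp2, a LIM protein of smooth muscle, rose (1.18 ± 0.25, 12.6 to 28.9 CPM). A fit without the inhibitor library of set 28 had 15 lower (38.5%, beside 19.9% over all expressed genes) and 1 higher.

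Targets of the coactivators YAP and TAZ, which act through TEAD factors and respond to cell stretch, did not move one way. Of 23 expressed members 4 fell (17.4%) and 1 rose, and the list's median was 0.10. F3, tissue factor, the starter of blood clotting (chr3, 121723537 to 121735052), was at 39.7, 39.4, 46.4 and 48.9 CPM without DS3201 and 14.3, 17.1, 25.8 and 21.8 CPM with it, without overlap (-1.17 ± 0.13, adjusted p = 0.00082). Myof (-0.45 ± 0.09), Axl (-0.58 ± 0.12) and Rbms3 (-0.75 ± 0.18) were the other lowered members. Ctgf (current symbol Ccn2), a matricellular protein often used as a YAP readout, rose: it was at 35.6, 70.4, 176 and 200.1 CPM without DS3201 and 67.4, 199, 422 and 415 CPM with it (1.22 ± 0.24, adjusted p = 0.0106). Its call was lost without the inhibitor library of set 28 (adjusted p = 0.0689), and 7 members were then lower (30.4%, beside 19.9% over all) with a median of -0.03. The median was -0.05 without the knockdown library of set 28, and 2 members were lower without the combined library of set 20. TGF-beta response genes also went both ways, with 5 lowered (Cdkn2b, Smurf1, Ltbp1, Tgfbr2 and Snai1) and 4 raised (Pmepa1, Tgfbr1, Skil and Ctgf) of 21 and a median of -0.23. These are 23.8% and 19.0% of the list, beside 7.64% and 4.72% over all. At most 1 was lower in each of 6 fits that left out 1 library. Pmepa1, a feedback inhibitor of TGF-beta signalling, was at 18.7, 26.3, 29.9 and 33.5 CPM without DS3201 and 39.4, 44.3, 59.5 and 60.8 CPM with it (0.92 ± 0.11, adjusted p = 0.00109).

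The promoters of 4 lowered genes of the contractile, YAP and TAZ and collagen lists are shown to let the regulatory sequence be seen beside the values. They were chosen after the motif matches were known. Acta2 and Col7a1, lowered genes also searched, held neither an exact CArG box nor an AP-1 match. Each is 250 bases before to 50 after the RefSeq start site on GRCm38.p6, 5′ to 3′ along the gene, with matches on either strand in capitals. The motifs were the CArG box (CC and GG around a fixed run of A or T, no mismatch allowed), TGANTCA for AP-1, CATTCC for TEAD factors, TATAAA and CCAAT. Near matches were not counted. The Acta2 window held ccctatatgg and ccttgtttgg, each 1 base off the CArG box. Cnn2 is at chr10:79988350-79988649, plus strand, F3 at chr3:121723287-121723586, plus strand, Mylk at chr16:34784700-34784999, plus strand and Col6a1 at chr10:76725995-76726294, minus strand.
Cnn2: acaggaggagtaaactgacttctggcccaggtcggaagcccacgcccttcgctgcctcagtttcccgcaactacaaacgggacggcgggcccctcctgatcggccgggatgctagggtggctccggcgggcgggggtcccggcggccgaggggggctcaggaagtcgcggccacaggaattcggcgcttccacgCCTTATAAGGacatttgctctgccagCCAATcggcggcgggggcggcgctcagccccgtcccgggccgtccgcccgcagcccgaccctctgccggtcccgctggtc
F3: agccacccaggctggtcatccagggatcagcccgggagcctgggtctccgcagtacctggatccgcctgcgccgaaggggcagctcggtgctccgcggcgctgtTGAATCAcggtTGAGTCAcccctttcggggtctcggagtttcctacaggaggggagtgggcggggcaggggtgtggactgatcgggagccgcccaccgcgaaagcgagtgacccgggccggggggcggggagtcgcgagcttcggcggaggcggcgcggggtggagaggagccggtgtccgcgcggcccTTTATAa
Mylk: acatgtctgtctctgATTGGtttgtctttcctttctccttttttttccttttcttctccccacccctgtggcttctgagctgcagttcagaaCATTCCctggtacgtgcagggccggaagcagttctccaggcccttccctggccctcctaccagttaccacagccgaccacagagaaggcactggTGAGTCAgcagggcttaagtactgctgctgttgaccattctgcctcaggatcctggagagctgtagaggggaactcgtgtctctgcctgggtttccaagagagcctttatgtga
Col6a1: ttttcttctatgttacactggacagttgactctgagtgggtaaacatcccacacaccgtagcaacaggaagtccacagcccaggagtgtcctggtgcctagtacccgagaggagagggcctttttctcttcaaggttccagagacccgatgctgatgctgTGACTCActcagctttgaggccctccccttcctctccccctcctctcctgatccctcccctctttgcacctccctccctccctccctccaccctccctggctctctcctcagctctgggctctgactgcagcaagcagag
Cnn2 held a CArG box from -56 to -47 and a CCAAT from -30 to -26, counted from the start site. F3 held a pair of AP-1 matches, from -146 to -140 and from -135 to -129, and a TATAAA from 43 to 48. Mylk held an AP-1 match from -64 to -58, a CATTCC from -158 to -153 and a CCAAT from -235 to -231, and Col6a1 an AP-1 match from -90 to -84. Of 22862 RefSeq promoter windows of this length, 1.53% held a CArG box, 7.98% the AP-1 motif, 14.6% CATTCC, 14.8% TATAAA and 38.2% CCAAT. Of the 6249 expressed genes with exactly 1 window, 1.38% held a CArG box and 4.32% the AP-1 motif. A CArG box stood in 1 of the 4 lowered contractile genes with 1 window, and an AP-1 match in 1 of 13 lowered collagen list members. Binding of factors at these letters was not measured.

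Part of the interferon-stimulated genes fell, with a more negative median in set 28. These are the genes that type I interferon switches on through STAT2, IRF9 and their partners, many of them antiviral. Of 36 expressed members 13 were lower (36.1%) and 0 higher, with a median of -1.04. Irf7, the factor that amplifies the interferon response (chr7, 141263183 to 141266499), was at 68.4, 69.0, 29.6 and 45.7 CPM without DS3201 and 39.4, 21.5, 5.92 and 9.39 CPM with it. The arms overlapped across the sets, and both libraries with DS3201 were lower within each set (-1.69 ± 0.32, adjusted p = 0.00857). Ifit3, an interferon-induced RNA-binding protein, was at 148, 110.4, 38.2 and 43.1 CPM without DS3201 and 68.3, 22.0, 9.80 and 3.19 CPM with it (-2.20 ± 0.38, adjusted p = 0.00547). Oas3, a sensor of double-stranded RNA that makes oligoadenylate, was at 84.7, 65.3, 18.2 and 19.2 CPM without DS3201 and 46.8, 26, 2.38 and 1.53 CPM with it (-1.96 ± 0.43, adjusted p = 0.0155). The signalling genes Stat2 (-1.11 ± 0.25), Irf9 (-0.78 ± 0.22) and Irf1 (-0.75 ± 0.16) and the RNA sensor Ddx58 (RIG-I, -0.97 ± 0.20) fell as well. The other lowered members were Ifit2, Mx2, Bst2, Ifi44, Ifi35 and Parp14, with changes from -1.70 to -0.64.

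The interferon genes were then compared between the sets. The list's median was -0.34 in set 20 and -1.79 in set 28, and 34 of the 36 members were more negative in set 28. A test of the difference between the sets called 4 members: Oas3, Isg15, Oasl1 and Gbp3. For Oas3 the effect was -1.07 in set 20 and -3.30 in set 28, a difference of -2.22 ± 0.36 (adjusted p = 0.0306). The count depended on single libraries, as did the share lowered over all expressed genes. Without the inhibitor library of set 28, 4 members were lower (11.1%, beside 19.9% over all). The count was 5 without the combined library of set 28 (6.00% over all) and 3 without the combined library of set 20 (2.62% over all). It was 7 without the control library of set 28 (3.69% over all) and 30 without the inhibitor library of set 20 (6.78% over all). The list's median lay between -1.43 and -0.80 over the 8 fits without 1 library. Without the set term 0 of the 36 were called, with a median of -0.79. Another 3 genes of the interferon-inducible PYHIN and ubiquitin-like pathways outside the list were among the most lowered genes, Pyhin1 (-2.16 ± 0.28), Ifi203 (-1.81 ± 0.31) and Uba7, the activating enzyme of ISG15 (-2.23 ± 0.40).

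**Figure D3:**
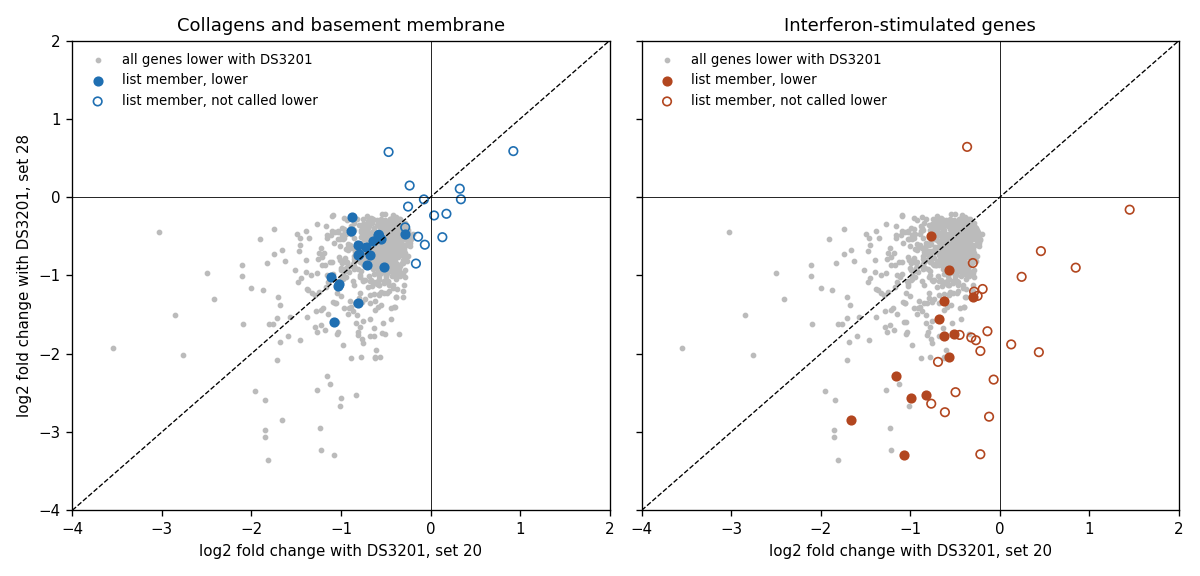
Log2 fold change with DS3201 in set 20 (horizontal) and set 28 (vertical) for all 792 lowered genes (grey), collagens and basement membrane genes (left, 33 of 34 within the axes) and interferon-stimulated genes (right, 36). Filled circles are members called lower, and the dashed line marks equal effects: 34 of the 36 interferon-stimulated genes lie below it, against 19 of the 34 collagen list members.

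Part of the secreted signals of the immune system fell too. Of 17 expressed cytokine and chemokine genes 6 were lower (35.3%) and 1 higher, with a median of -0.42. Cxcl12, the chemokine that stromal cells use to hold blood progenitors (chr6, 117168535 to 117181368), was at 93.0, 85.1, 682 and 636 CPM without DS3201 and 54.6, 33.1, 342 and 194 CPM with it. Its level differed several-fold between the sets, and it fell within each pair (-1.21 ± 0.16, adjusted p = 0.00150). Ccl9 was at 36.9, 43.6, 16.5 and 17.8 CPM without DS3201 and 13, 9.61, 3.00 and 1.28 CPM with it, with no overlap (-2.37 ± 0.31, adjusted p = 0.00167). Il1rl1, the receptor of interleukin 33, was at 209, 217, 206 and 199.6 CPM without DS3201 and 59.4, 78.4, 145 and 86.9 CPM with it, again with no overlap (-1.22 ± 0.23, adjusted p = 0.00755). The chemokines Ccl2 (-0.82 ± 0.22) and Ccl7 (-1.09 ± 0.27) and the growth factor Csf1 (-0.42 ± 0.10) also fell, and Cx3cl1 rose (0.95 ± 0.24). Without the control library of set 28, 3 members were lower, beside 3.69% over all expressed genes. Il34, another ligand of the Csf1 receptor and not on the list, was at 9.27, 9.30, 0.671 and 0.808 CPM without DS3201 and 1.13, 1.13, 0.265 and 0.767 CPM with it, so that most of its level was in set 20.

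Some lipid synthesis and lysosomal genes fell, by less than 1 on the log2 scale. Of 23 expressed sterol synthesis genes 6 were lower (26.1%) and 0 higher, with a median of -0.38. Acat2, an acetyl-CoA acetyltransferase of the cytosol, was at 105, 64.8, 48.7 and 44.7 CPM without DS3201 and 54.4, 42.4, 33.3 and 28.7 CPM with it. It fell in every pair (-0.69 ± 0.12, adjusted p = 0.00636). The enzymes Nsdhl (-0.71 ± 0.15), Fdps (-0.75 ± 0.20), Lss (-0.63 ± 0.17) and Ebp (-0.42 ± 0.10) fell as well. Of 15 fatty acid synthesis genes 4 were lower (26.7%), namely Fads1 (-0.60 ± 0.13), Scd1 (-0.41 ± 0.10), Scd2 (-0.64 ± 0.19) and Acaca (-0.34 ± 0.10), and Acsl3 rose (0.78 ± 0.14). Of 30 lysosome and autophagy genes 6 fell (20%, beside 7.64% over all) and 0 rose. Among them were the hydrolase Hexa (-0.56 ± 0.13) and the proton pump subunits Atp6v0d1 (-0.53 ± 0.11) and Atp6v1a (-0.41 ± 0.09). Without the control library of set 20 the 3 lists had 1, 0 and 1 lowered members (3.09% over all expressed genes). Without the combined library of set 20 they had 2, 0 and 1 (2.62% over all). Without the inhibitor library of set 28 they were 10, 7 and 9 (43.5, 46.7 and 30% beside 19.9% over all).

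**Figure D4:**
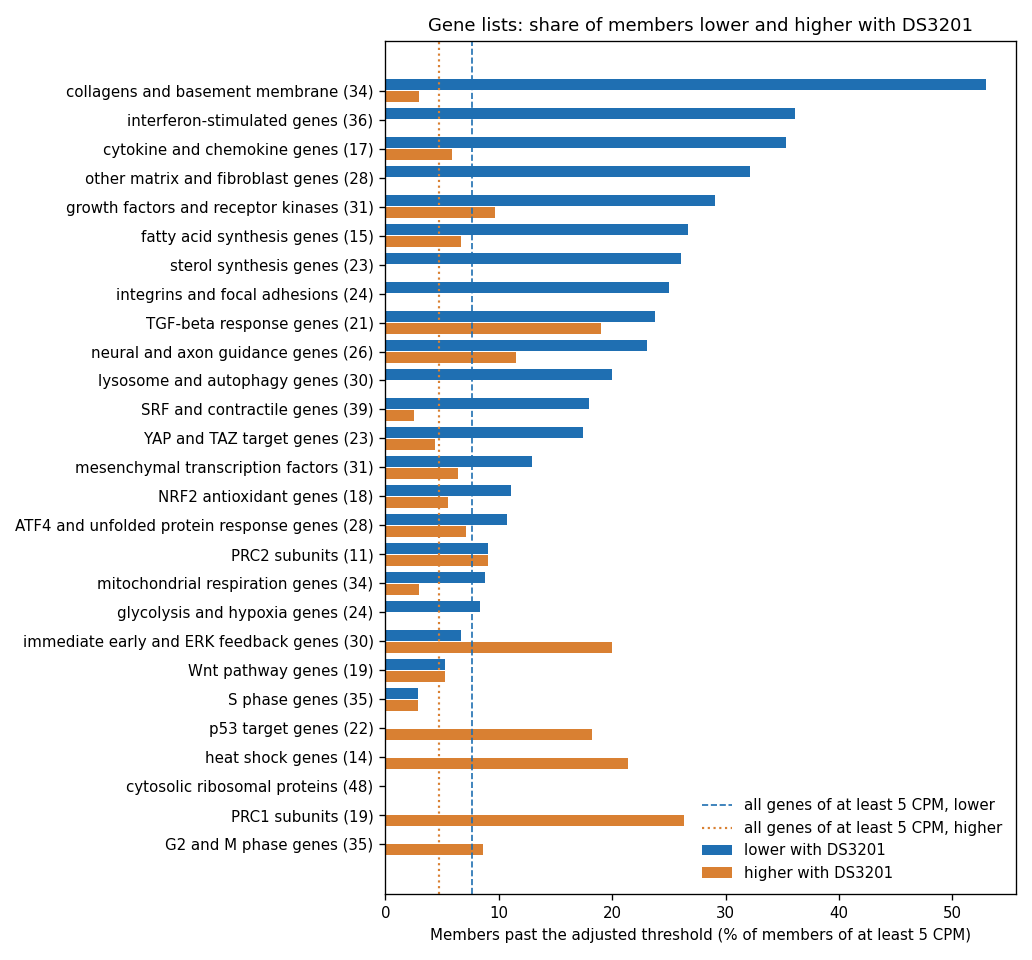
Share of expressed members that were lower (blue) and higher (orange) with DS3201 in each list of 10 or more expressed members, whose number stands in parentheses. Dashed and dotted lines mark the shares over all expressed genes, 7.64% lower and 4.72% higher, and the collagen list reaches 52.9% lower.

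The remaining list counts under these settings were as follows. With the GC correction, where 12.6% of all expressed genes were lower and 7.52% higher, 16 interferon-stimulated genes, 10 integrin and focal adhesion genes, 12 matrix and fibroblast genes and 9 growth factor and receptor genes were lower. In that fit 6 axon guidance genes were lower and 7 higher, and 10 immediate early and ERK feedback genes, 7 p53 target genes, 7 PRC1 subunits and 5 heat shock genes were higher. Without the inhibitor library of set 28, 9 of the 24 integrin and focal adhesion genes (37.5%) and 5 of the 17 cytokine and chemokine genes (29.4%) were lower. That fit had 7 lower and 8 higher axon guidance genes, 7 higher immediate early genes, 6 higher p53 target genes and 6 lower and 4 higher mesenchymal factors.

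Lists of general growth and metabolism had called shares on both sides of those over all expressed genes, 7.64% lower and 4.72% higher. None of 48 cytosolic ribosomal protein genes passed in edgeR's test, and their median was 0.05. Of 35 S phase genes 1 fell (Mcm10, -0.39 ± 0.09) and 1 rose (Ccne1, 0.41 ± 0.12), 2.86% each. Of 35 G2 and M phase genes 3 rose (8.57%), with a median of 0.21. Of 34 mitochondrial respiration genes 3 fell (8.82%), among them the complex I subunits Ndufs3 (-0.45 ± 0.12) and Ndufb3 (-0.40 ± 0.12). Cytochrome c, Cycs, rose (0.53 ± 0.10). Hk1 and Pgk1 of glycolysis fell (-0.39 ± 0.10 and -0.56 ± 0.14), 2 of 24 on that list (8.33%). Of 28 ATF4 and unfolded protein response genes 3 fell (10.7%) and 2 rose (7.14%). The fallen 3, Phgdh (-0.68 ± 0.17), Psph (-0.54 ± 0.16) and Shmt2 (-0.61 ± 0.14), make serine and glycine, while asparagine synthetase Asns rose (0.62 ± 0.13). Among NRF2 antioxidant genes, 2 of 18 fell (11.1%), namely Gsta4 (96.9 to 47.0 CPM) and Gstm1 (-0.62 ± 0.12), and Gclc rose (5.56%). Heat shock genes had 3 raised of 14 (21.4%, beside 4.72% over all), namely Cryab, Hspa1a and Hspa1b, and the last pair are near-identical copies whose reads may be shared. Cryab kept its call in all 8 fits without 1 library, Hspa1a in 4 and Hspa1b in 1. Without the inhibitor library of set 28, 11 S phase (31.4%), 8 mitochondrial (23.5%) and 4 ATF4 genes (14.3%) were lower, beside 19.9% over all expressed genes. In that fit 11 G2 and M phase (31.4%) and 6 ribosomal protein genes (12.5%) were higher, beside 8.47%. Without the combined library of set 20, the knockdown library of set 28 or either control library, 0 G2 and M phase genes were higher. In those fits 1.87 to 2.52% of all expressed genes were higher. Without the control library of set 20, 0 mitochondrial, glycolysis and ATF4 genes were lower, beside 3.09% over all.

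The cell cycle inhibitors of the Ink4 locus, a classical Polycomb target, were lower and not higher with DS3201. Cdkn2a, which encodes p16 and p19 (chr4, 89274473 to 89294619), was at 338, 319, 167 and 155 CPM without DS3201 and 248, 196, 82.6 and 133 CPM with it. It changed by -0.57 ± 0.16 (adjusted p = 0.0406). Its neighbour Cdkn2b, encoding p15, was at 54.3, 48.0, 32.8 and 30.1 CPM without DS3201 and 42.0, 27.8, 19.7 and 22.3 CPM with it and changed by -0.57 ± 0.14 (adjusted p = 0.0226). Both fell in all 4 pairs, and both calls were lost in 5 of the 8 fits that left out 1 library (adjusted p up to 0.144 and 0.0884). Cdkn1a, encoding p21, was at 61.4, 92.0, 31.1 and 63.1 CPM without DS3201 and 173, 153, 89.8 and 149 CPM with it and rose (1.26 ± 0.19, adjusted p = 0.00268). Of 22 expressed p53 target genes 4 rose (18.2%, beside 4.72% over all) and 0 fell. The count was 2 without the control library of set 20, and the median of 0.23 was 0.09 to 0.32 over the 8 fits without 1 library. Besides Cdkn1a these were Pmaip1, a BH3-only death gene (1.95 ± 0.21), Trp53inp1 (1.12 ± 0.24) and Btg2 (0.90 ± 0.21).

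Of 11 expressed PRC2 genes 1 fell and 1 rose (9.09% each, beside 7.64% lower and 4.72% higher over all), with a median of -0.07. Ezh2, a target of the inhibitor, was at 59.6, 60.4, 89.9 and 90.4 CPM without DS3201 and 80.9, 89.6, 156 and 108 CPM with it (0.52 ± 0.13, adjusted p = 0.0224), and it rose within each pair. That call was lost in 5 of the 8 fits without 1 library. Ezh1 did not pass (0.00 ± 0.12, adjusted p = 0.980), nor did Ring1 itself (-0.09 ± 0.18) or Rnf2 (0.32 ± 0.16). The genes listed as knocked out still had counts: without DS3201 the mean level in CPM (± SD, n = 4) was 205 ± 8.35 for Ehmt2, 87.8 ± 2.59 for Suv39h1, 45.1 ± 6.29 for Ehmt1, 38.3 ± 11.2 for Rnf2, 14.8 ± 0.973 for Suv39h2 and 9.45 ± 2.93 for Setdb1. Gene totals do not show whether the deleted part is transcribed. Of the H3K9 enzymes among them, Setdb1 (-0.54 ± 0.18), Ehmt2 (-0.29 ± 0.18), Ehmt1 (-0.07 ± 0.09), Suv39h2 (0.09 ± 0.15) and Suv39h1 (-0.34 ± 0.11) did not pass either. Ring1 was at 20.2, 4.51, 9.73 and 1.41 CPM without DS3201, lower in both libraries with the Ring1a shRNA. Phf19, a PRC2 accessory subunit that reads H3K36 methylation, fell (-0.57 ± 0.13, adjusted p = 0.0209). Of 19 expressed PRC1 subunits 5 rose (26.3%) and 0 fell, with a median of 0.17, and 3 rose in 6 of the 8 fits without 1 library. The 5 were Rybp (68.3, 71.6, 65.7 and 65.2 CPM without DS3201 and 119, 108, 153 and 104 CPM with it), Phc1 (0.69 ± 0.10), Bmi1 (0.71 ± 0.14), Pcgf5 (0.65 ± 0.19) and Cbx2 (0.57 ± 0.13). For Rybp the arms did not overlap (0.83 ± 0.13, adjusted p = 0.00373).

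Signalling feedback and regulator genes showed changes in both directions. Of 30 immediate early and ERK feedback genes 6 rose (20%, beside 4.72% over all) and 2 fell (6.67%, beside 7.64%). Over the 8 fits without 1 library 4 to 7 rose and 0 to 3 fell, with 0 lower without the combined library of set 28. Egr1 (-1.01 ± 0.22) and Fosb (-1.24 ± 0.33), both induced within minutes of growth factor stimulation, fell. Klf4 was at 7.65, 12.4, 13 and 19.5 CPM without DS3201 and 32.2, 52.4, 29.1 and 48.4 CPM with it and rose (1.66 ± 0.19, adjusted p = 0.000809), as did the MAP kinase phosphatases Dusp4 (1.52 ± 0.18) and Dusp1 (0.96 ± 0.15), with Jun (0.50 ± 0.11), Atf3 (1.04 ± 0.27) and Spred1 (0.76 ± 0.13). Among mesenchymal transcription factors 4 of 31 fell (Twist2, -0.66 ± 0.16, Tbx5, -0.65 ± 0.17, Hic1, -0.86 ± 0.22, and Snai1, -0.52 ± 0.16) and 2 rose (Foxd1, 1.13 ± 0.27, and Prrx2, 0.51 ± 0.15, in 3 of 4 pairs). These shares are 12.9% and 6.45%, beside 7.64% and 4.72% over all. None of the 31 was lower without either control library, the knockdown library of set 28 or the combined library of set 20, and Tbx5 kept its call in 1 of the 8 fits. The Wnt antagonist Dkk3 fell (-1.23 ± 0.22) and Fzd4 rose, 1 each of 19 expressed Wnt genes (5.26%). Over all 36 tested Wnt genes 1 was lower and 14 higher. Hes1 of the Notch pathway rose (0.97 ± 0.14), 1 of 8 expressed members (12.5%), and over all 13 tested members 5 were higher. None of 5 expressed DNA methylation enzymes passed in edgeR's test.

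The most lowered genes were otherwise of diverse function. Aoc3, a surface amine oxidase (chr11, 101330606 to 101339430), was at 15.8, 6.01, 0.604 and 0.606 CPM without DS3201 and 1.47, 0.377, 0.0883 and 0.192 CPM with it, so that most of its level was in set 20 (-3.23 ± 0.48, adjusted p = 0.00273). Cldn15, a tight junction claudin, was at 7.94, 4.67, 10.5 and 5.65 CPM without DS3201 and 1.59, 0.314, 1.59 and 2.04 CPM with it, with no overlap (-2.38 ± 0.37). Phf11d was at 17.7, 16.3, 6.91 and 7.74 CPM without DS3201 and 6.23, 3.58, 0.883 and 0.575 CPM with it, also with no overlap (-2.40 ± 0.34). Ptn, encoding the growth factor pleiotrophin (-2.16 ± 0.41), Figf (current symbol Vegfd), a ligand for VEGF receptors (-1.88 ± 0.19), and the actin adaptor Sorbs2 (-1.84 ± 0.24) followed. Sorbs2 was at 13.8, 12.9, 86.0 and 55.9 CPM without DS3201 and 4.30, 2.32, 36.9 and 12.8 CPM with it, higher in set 28 and lower with DS3201 in each pair. Csf2rb, the shared receptor chain for GM-CSF and interleukin 3, changed by -1.77 ± 0.26, but its reads may be shared with its near copy Csf2rb2.

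Among the raised expressed genes, cyclin D2 changed most. Ccnd2 (chr6, 127125162 to 127152188) was at 0.380, 1.91, 3.09 and 18.2 CPM without DS3201 and 47.0, 81.4, 150.5 and 227 CPM with it. All libraries with DS3201 exceeded all without it (5.07 ± 0.45, adjusted p = 0.000249). C3, the central complement protein, was at 9.55, 11.9, 0.403 and 0.538 CPM without DS3201 and 217, 206, 19.7 and 18.2 CPM with it (4.55 ± 0.21, adjusted p = 1.28e-05), and set 20 was above set 28 in both arms. Cp, the copper-carrying ferroxidase ceruloplasmin, was at 10.8, 18.7, 4.09 and 8.21 CPM without DS3201 and 72.7, 53.9, 49.9 and 31.2 CPM with it (2.41 ± 0.31, adjusted p = 0.00153). The sulfotransferase Chst1 (2.80 ± 0.49) and the endocytic receptor Lrp2 (2.48 ± 0.23) rose in both sets. F5, Nrep and Slc25a23 also rose, by amounts that differed between the sets in the test of that difference. F5 kept its call in 1 of the 8 fits without 1 library, Nrep in 2 and Slc25a23 in 4. Usp17la, a deubiquitinase gene of the 2-cell embryo, was at 23.9, 30.1, 20.1 and 29.0 CPM without DS3201 and 70.9, 82.3, 96.8 and 100.2 CPM with it (1.76 ± 0.14, adjusted p = 0.00018), and reads may be shared among the copies of its family.

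The effect of DS3201 was then taken within each shRNA. With the control shRNA alone, 103 expressed genes were lower (0.993%) and 138 higher (1.33%). With the Ring1a shRNA alone, 115 were lower (1.11%) and 70 higher (0.675%). All 103 of the first were negative with the Ring1a shRNA, with a median of -0.75 there beside -0.98 with the control shRNA, and 45 of them were called. All 115 of the second were negative with the control shRNA, with a median of -0.88 there and -1.26 with the Ring1a shRNA. The arms share no libraries, but the main comparison holds both. The 792 genes had medians of -0.63 and -0.59 in these arms. The interaction of DS3201 with the shRNA called 0 genes lower (0%) and 0 higher (0%) in edgeR's test. Of the 10371 expressed genes 71 had an unadjusted p under 0.05, a smaller share than 0.05. The test was thus conservative here, and 0 calls do not show equal effects with both shRNAs. For Pdgfrb the effects were -1.50 with the control shRNA and -1.50 with the Ring1a shRNA. For Col1a1 they were -0.66 with the control shRNA and -0.75 with the Ring1a shRNA. Some list medians were less alike. In the same order they were -0.66 and -1.33 for interferon-stimulated genes and -0.11 and -0.67 for cytokine and chemokine genes. They leaned the other way for sterol synthesis genes (-0.54 and -0.22) and collagens and basement membrane genes (-0.53 and -0.34). No list was tested for this difference. Both arms leaned on single libraries: leaving out the inhibitor library of set 20 called 2911 genes lower with the control shRNA and 622 lower and 1252 higher for the interaction, with the inhibitor group then the set 28 library alone.

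The effect of DS3201 was also compared between the sets. The interaction of DS3201 with the set called 75 expressed genes more positive in set 20 (0.723%) and 36 more positive in set 28 (0.347%). In 105 of these 111 genes the change was more positive in the set with the lower level without DS3201, and both quantities use the same untreated libraries. Of the 111 genes 18 were called higher, 1 lower and 92 neither in the main comparison. Col11a1, a minor fibril collagen, had 0 counts in both set 20 libraries without DS3201 and 24.1 and 14.2 CPM with it. In set 28 it went from 35.8 and 58.8 CPM to 20.3 and 20.7 CPM. Scg2, a secretory granule protein, was at 0.0475, 0.203, 149 and 109 CPM without DS3201 and 12.3, 9.48, 102 and 48.7 CPM with it. Igf1, the insulin-like growth factor, was at 18.9, 19.2, 61.4 and 79.3 CPM without DS3201 and 115, 87.8, 76.7 and 50.4 CPM with it. Pcdh17, a protocadherin, was low in set 28 instead (168, 179, 6.17 and 4.24 CPM without DS3201 and 128, 122, 52.3 and 72.6 CPM with it). For the 792 lowered genes the medians were -0.56 in set 20 and -0.64 in set 28, and only Oas3 among them differed by the test. The 792 were called by a fit with 1 DS3201 effect for both sets, which calls genes with unlike effects less readily. That selection partly fixed the low number in advance, so it does not show equal effects in both sets. The interaction counts were 380 and 243 without the inhibitor library of set 28 and 2470 and 2414 without the combined library of set 28, where set 28 is then represented with DS3201 by the inhibitor library alone.

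Chromosome 3 had the highest share of lowered genes of all chromosomes. Of its 476 expressed genes 73 were lower (15.3%) and 12 higher, beside 7.64% over all expressed genes, and chromosome X followed with 34 of 321 (10.6%). The medians of all chromosome 3 genes in the 4 pairs were -0.10, -0.15, -0.10 and -0.31, the last in set 28 with the Ring1a shRNA. On chromosome X they were -0.06, -0.05, 0.03 and -0.29. Without the combined library of set 28, 37 chromosome 3 genes (7.77%) and 21 chromosome X genes (6.54%) were lower, beside 6.00% over all expressed genes. With the inhibitor library of set 28 left out they were 157 (33.0%) and 95 (29.6%), beside 19.9%. Of the lowered genes above with a chromosome assigned, those on chromosome 3 included F3, Postn, Ecm1, S100a4, Synpo2, Csf1, Fdps, Phgdh and Gstm1. Those on chromosome X included Col4a5, Nsdhl, Ebp and Pgk1. Without the genes assigned to these chromosomes 685 were lower and 457 higher, which includes 33 and 29 genes, such as Figf, with no chromosome assigned.

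The fibroblast label was checked against its markers. Of 10 fibroblast markers 8 were expressed, with summed levels of 14563 to 18879 CPM without DS3201 and 8959.7 to 12485 CPM with it, and 5 fell (Col1a1, Col1a2, Col3a1, Pdgfrb and S100a4). The marker Pdgfra was at 0.190 to 7.27 CPM without DS3201 and 8.95 to 28.4 CPM with it. Thy1, another marker under the limit, was at 0.0673 to 0.428 CPM without DS3201 and 0 to 0.251 CPM with it. Of 13 epithelial markers 3 were expressed, and Krt14 (0.82 ± 0.17) and Krt19 (0.65 ± 0.14) rose, while Cdh1 and Epcam stayed at or under 1.06 CPM in every library. The third, Grhl2, was not called, at 6.71 to 31.4 CPM without DS3201 and 6.62 to 44.5 CPM with it. The summed level of the epithelial markers was 93.0 to 189.6 CPM without DS3201 and 157 to 338 CPM with it. Neuronal markers summed to 19.2 to 77.4 CPM and 102 to 144 CPM, endothelial markers to 61.9 to 123 CPM and 116 to 191 CPM, and blood and macrophage markers to 8.35 to 22.1 CPM and 24.4 to 32.0 CPM. Skeletal muscle markers summed to 5.59 to 35.8 CPM and 14 to 30.7 CPM, with Des raised (0.83 ± 0.22). Des kept its call in 1 of the 8 fits without 1 library. The other expressed member, Acta1, was not called, at 2.62 to 24.4 CPM without DS3201 and 2.12 to 9.54 CPM with it. Of the adipocyte markers Pparg and Lpl fell (-0.75 ± 0.18 and -0.52 ± 0.15). The 2-cell embryo markers summed to 21.1 to 38.7 CPM without DS3201 and 283 to 379 CPM with it. Single members differed widely. The neuronal Rbfox3, endothelial Cdh5, muscle Myod1 and leukocyte Ptprc were each at or under 5.03 CPM in every library. Other members of the same lists were higher with DS3201: Dcx was at 0 to 0.0673 CPM without DS3201 and 7.42 to 28.5 CPM with it, Uchl1 at 0.201 to 0.740 and 9.80 to 31.7 CPM and Map2 at 0.143 to 46.2 and 10.4 to 91.8 CPM. The endothelial Flt4 was at 0 to 0.731 CPM without DS3201 and at 21.8 CPM or more with it. Flt1 was called higher, at 23.6 to 99.6 CPM without DS3201 and 60.6 to 123 CPM with it. The other expressed endothelial markers, Kdr and Vwf, were not called and lay at 7.14 to 21.1 CPM over all libraries. The macrophage gene Lyz2 was at 0.0475 to 0.269 and 5.27 to 7.91 CPM, and the class II gene H2-Aa at 0 in all 4 libraries without DS3201 and 6.97 to 15.8 CPM with it. Cd68, the only expressed blood and macrophage marker, fell instead (-0.84), from 2.49 to 10.2 CPM without DS3201 to 1.53 to 4.36 CPM with it. Its call was kept in 1 of the 8 fits without 1 library. Itgam was at 1.41 to 8.46 CPM without DS3201 and 0.128 to 2.07 CPM with it. The part of these markers in the fall of the fibroblast genes was not tested.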

How the data were processed

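RNA-seq was done on 8 libraries, 2 for each combination of shRNA and DS3201. The deposited file is a table of raw counts for 24062 genes and 1153 repeat subfamilies. Trim Galore, TopHat2 and mm10 are named in the submitters' processing notes, and the counting tool, its annotation and its use of strand are named in no source used here. Another 8 columns of the table match no sample and were not used. The members and gene lists were chosen with earlier results of these data known.

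Counts were fitted with edgeR 4.0.16 in R 4.3.3 (TMM scaling, filterByExpr by group, robust quasi-likelihood F test) with terms for DS3201, shRNA and set, and p-values were adjusted by Benjamini-Hochberg over 15287 entries at 0.05. The set is the number that opens the column name. Deviations from the group means correlated between libraries of the same set with r from 0.626 to 0.956, so the sets pair the libraries. CPM are TMM-scaled. Text values were named by rule: the 14 most lowered and 8 most raised expressed genes, the 6 lowered genes of highest level, the perturbed genes and up to 3 genes of smallest p in each direction of each list. Called genes named by this rule also had to change in the same direction in all 4 pairs of libraries. Other called members of lists, genes that differ between sets and members under 5 CPM were added after their values were seen. The scripts were tested on simulated data. Alternatives with DESeq2 1.42.0, limma 3.58.1 and other settings are in the closing section. Promoters came from RefSeq on GRCm38.p6. Only 57.6% of lowered genes had exactly 1 window, so a check of promoter composition over the whole set was void. Results for some called genes are not reported here.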

Additional observations from a re-analysis of the deposited data

Results flagged for a closer look

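Among the genes named by the rule, 5 differed in their response to DS3201 between set 20 and set 28 by the test of the difference itself (edgeR's quasi-likelihood test of the interaction). For F5, coagulation factor V, the difference of set 28 minus set 20 was 10.18 on the log2 scale as fitted, a value that depends on the 0 counts in both set 28 libraries without DS3201 and is no measure of size. F5 went from 26.3 and 23.6 CPM to 87.1 and 92.9 CPM in set 20, and in set 28 it was at least 305-fold higher with DS3201, with 3 counts over both untreated libraries as the floor. For Nrep the difference was -3.76 ± 0.55 (adjusted p = 0.0203), with effects of 4.96 in set 20 and 1.21 in set 28. For Slc25a23, a mitochondrial carrier, it was -3.02 ± 0.41 (adjusted p = 0.0165), with effects of 4.18 in set 20 and 1.16 in set 28. For Gclc, the catalytic subunit of glutathione synthesis, it was 1.299 with an SE of 0.234 (adjusted p = 0.0428), with levels of 52.1, 57.8, 38.5 and 41.9 CPM without DS3201 and 77.2, 94.9, 167 and 142 CPM with it. For Oas3 it was -2.22 ± 0.36 (adjusted p = 0.0306), the one of the 5 that fell. Groups of 2 libraries were not tested for single outlying samples.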

How the results depend on the processing

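Of 792 lowered and 489 raised expressed genes, leaving out 1 library gave 272 to 2062 and 194 to 878. Without the set term that pairs the libraries (no replicate block) 94 and 115 were called, and within the shRNAs 0 lower and 4 higher (control) and 0 lower and 2 higher (Ring1a). The GC correction, chosen after seeing the data, gave 1303 and 780. DESeq2 called 1332 lower, and 683 higher. A level limit of 5 CPM over all 8 libraries gave 745 higher, of 1 CPM 802 and of 20 CPM 251. Fits without 1 library gave 2 to 2911 lower and 10 to 1502 higher with the control shRNA, and 1 to 841 and 5 to 330 with the Ring1a shRNA. They gave 0 to 622 and 0 to 1252 for the interaction with the shRNA and 15 to 2470 and 2 to 2414 for that with the set, and a lone library was there assumed to vary like the other groups. Of 124 called named genes 58 kept their call in all 8 such fits and 27 without the set term. None of these 124 changed sign under any alternative run, but called genes were named only with the same sign in all 4 pairs. The naming rule thus largely fixed their sign in advance. Among genes that passed no test, Ezh1 (0.00) was -0.0047 with DESeq2, -0.0095 with RLE size factors, -0.021 scaled by library size only, -0.052 with no filter on low counts and -0.063 to 0.051 without 1 library. Suv39h2 was -0.00097 with the GC correction and -0.052 to 0.177 without 1 library, and Ring1 was 0.11 with the GC correction. The cause was not tested.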

Other observations

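Of 464 repeat subfamilies of at least 5 CPM without DS3201, counted in the same table, 70 rose (15.1%), 2 fell and 392 were not called, beside 14.5% higher over all 15287 entries tested and 4.72% over genes with the same level limit. The share of counts in repeats was 8.59 to 9.92% in the libraries without DS3201 and 10.4 to 14.6% in those with it.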
